A study of Homo sapiens with 12 samples.

Results

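The genes described here are 10 components of the extrinsic, receptor-driven cell death pathway: the ligand TRAIL (TNFSF10), its signalling receptors (TNFRSF10A and TNFRSF10B) and membrane-bound decoy receptor (TNFRSF10D), the receptors FAS, TNFRSF1A and TNFRSF21, the adaptor FADD, the protease CASP8 and its inhibitor CFLAR. They were taken by symbol from the 62754 gene identifiers of the count table, and all 10 passed the filter on low counts, which 17115 genes passed. They were measured in PC9 cells, a human lung adenocarcinoma line that depends on mutant EGFR, in 4 groups of 3 replicate cultures. Per the labels the line is subclonal and the cultures of a group were grown apart after a shared first flask, so p-values measure the spread between such cultures. The groups were TDP1 wild-type cells without drug (untreated WT), TDP1 wild-type cells kept for 7 days in 1 µM erlotinib, an EGFR kinase inhibitor (drug-tolerant cells, DTC), TDP1 wild-type cells kept at that dose for 28 days (DTEC, for drug-tolerant expanded cells), and the TDP1 knockout line KO2 without drug (KO). The knockout is represented by 1 line, and TDP1 encodes a phosphodiesterase that repairs DNA ends blocked by topoisomerase 1.

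TRAIL and related ligands bind trimeric receptors whose death domains recruit FADD, and FADD in turn recruits the initiator proteases caspase-8 and caspase-10, which start the apoptotic cascade. The long form of c-FLIP, the product of CFLAR, resembles caspase-8 without its full protease activity and limits caspase-8 activation at the receptor. TNFRSF10D carries a truncated death domain and binds TRAIL without transmitting the full death signal. The same receptors can instead engage TRAF and cIAP proteins and activate NF-κB, whose targets include BIRC3, TRAF1 and TNFAIP3.

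The libraries held 25572691 to 38373679 estimated read counts. Levels are given as CPM, counts relative to the TMM-scaled size of a library, and 3 counts corresponded to 0.0824 to 0.115 CPM. TDP1 averaged 26.3 CPM in untreated WT and 10.8 CPM in KO (log2 fold change -1.29, adjusted p = 1.3e-05 by edgeR's quasi-likelihood test), in the direction of the label, and 13.96 CPM in DTC and 26.6 CPM in DTEC. Mitochondrial transcripts took 4.43 to 5.41% of counts in DTC and 1.82 to 2.78% in the other groups. A list of 5 epithelial genes summed to 4465 to 5022 CPM in DTC and to 7481 to 10260 CPM in the other libraries, mostly through the keratins KRT8 and KRT18, while CDH1 was not called different in DTC (297.7 against 285.5 CPM in untreated WT). Among markers of other cells, the 4 fibroblast genes came down to COL1A1 (55.7 CPM in DTC against 8.30 CPM in untreated WT), with COL1A2 and DCN at 2 reads or fewer in every library and PDGFRB at 12 or fewer. Of the leukocyte genes, LYZ averaged 1.36 CPM in DTC against 0.217 CPM in untreated WT and CD14 0.738 against 0.173 CPM, while PTPRC and CD3E had at most 5 reads in any library. The 3 endothelial genes summed to 41.9 to 141.6 CPM, highest in DTEC through PECAM1 (92.1 CPM, against 32.0 CPM in untreated WT and 8.77 CPM in DTC). Group means of CDH5 ran from 27.7 to 36.7 CPM, and VWF was highest in DTC (1.57 CPM). The 3 lung epithelial genes NKX2-1, SFTPB and NAPSA summed to 1.21 to 17.5 CPM. The part of these shifts in the results below was not tested, and a smaller share of cells of a kind cannot be told apart from less RNA per cell.

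Promoter windows show where known regulatory letters lie in the members and in the NF-κB-linked genes that changed most. The RefSeq table for GRCh38.p14 held 250 bases before to 50 bases after the start for 7 of the 10 members, in 14 windows, and for 29 of 41 further pathway genes. It held no window for TNFRSF10A, TNFRSF10B or TNFRSF10D, so the promoters of these TRAIL receptors were not searched. Each was searched on both strands for the core of the interferon-stimulated response element (ISRE), TTCNNNGAA, the gamma-activated site (GAS), GTAAACA (FOXO), TGANTCA (AP-1) and the core of the NF-κB site. Among all 35116 promoters of that length, 3.57% held the ISRE letters, 7.66% GAS, 3.42% FOXO, 7.71% AP-1 and 1.91% NF-κB. Where the ISRE and NF-κB cores matched, their letters stand in capitals below. A match describes letters and no more. The 4 sequences below are of TNFSF10, CASP8, TNFAIP3 and BIRC3. TNFSF10 and CASP8 are the searched members with ISRE letters, CASP8 in the printed window alone. TNFAIP3 and BIRC3 are, with TRAF3 and CYLD, the searched pathway genes with NF-κB letters. TNFAIP3 and BIRC3 are shown because they were named for their large changes. Letters of AP-1 were found in windows of CFLAR, CASP8, FAS and FADD, and ISRE letters in 6 further pathway genes. None of the 5 motifs was found in the windows of TNFRSF1A, TNFRSF21 or TRAF1, the pathway gene that changed most in DTC. Each is written 5′ to 3′ on the gene's strand, with matches in capitals.
TNFSF10, chr3:172523381-172523680, minus strand, ISRE from position -187: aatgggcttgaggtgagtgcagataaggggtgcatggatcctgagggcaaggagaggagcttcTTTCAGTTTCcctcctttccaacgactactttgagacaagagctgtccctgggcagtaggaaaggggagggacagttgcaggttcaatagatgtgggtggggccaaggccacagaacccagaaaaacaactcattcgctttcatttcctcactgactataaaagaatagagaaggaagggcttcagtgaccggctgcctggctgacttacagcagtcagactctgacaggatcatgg
CASP8, chr2:201233213-201233512, plus strand, GAS from -200 and ISRE from -3: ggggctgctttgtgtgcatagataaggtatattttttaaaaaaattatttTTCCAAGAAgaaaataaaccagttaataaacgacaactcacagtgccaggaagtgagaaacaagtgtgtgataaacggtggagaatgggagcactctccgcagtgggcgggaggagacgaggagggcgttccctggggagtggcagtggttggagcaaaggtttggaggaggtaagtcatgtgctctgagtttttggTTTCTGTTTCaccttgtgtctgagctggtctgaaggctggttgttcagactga
TNFAIP3, chr6:137867009-137867308, plus strand, NF-κB from -67 and -55: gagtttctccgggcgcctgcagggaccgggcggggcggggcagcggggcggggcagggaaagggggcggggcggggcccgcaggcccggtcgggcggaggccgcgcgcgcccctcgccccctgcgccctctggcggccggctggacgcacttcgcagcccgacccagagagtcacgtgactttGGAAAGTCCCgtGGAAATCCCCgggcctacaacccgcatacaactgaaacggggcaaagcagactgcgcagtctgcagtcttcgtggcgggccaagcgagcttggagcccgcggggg
BIRC3, chr11:102317234-102317533, plus strand, NF-κB from -199: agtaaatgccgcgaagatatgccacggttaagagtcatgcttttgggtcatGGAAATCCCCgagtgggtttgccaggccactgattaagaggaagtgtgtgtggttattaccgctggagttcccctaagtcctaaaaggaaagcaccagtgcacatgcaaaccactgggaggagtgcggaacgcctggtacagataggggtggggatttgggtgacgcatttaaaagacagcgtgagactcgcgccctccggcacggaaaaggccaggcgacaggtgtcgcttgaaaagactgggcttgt

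The ligand showed the widest range of the 10 genes. TNFSF10 (ENSG00000121858, chromosome 3, 172505508 to 172523507, minus strand) was close to the counting limit in untreated WT, with 0.119, 0 and 0.288 CPM from 4, 0 and 10 reads. DTC gave 0.575, 1.24 and 1.64 CPM, and DTEC gave 6.73, 5.04 and 4.48 CPM from 221, 132 and 163 reads. Libraries of these 3 groups did not overlap, so the order untreated WT, DTC, DTEC held in every culture. TNFSF10 rose in DTC over untreated WT by 3.00 on the log2 scale (SE 0.610, adjusted p = 6.09e-04, edgeR) and in DTEC by 5.22 (SE 0.584, adjusted p = 6.3e-06), a fold of 37.3 from a start of a few reads. These sizes rested on untreated WT replicate 3, which held 10 of the 14 reads: without it they were 4.14 and 6.35. It also rose between the drug-treated groups, from 1.15 ± 0.539 CPM (SD, n = 3) in DTC to 5.42 ± 1.17 CPM in DTEC (log2 fold change 2.22, adjusted p = 9.49e-04, edgeR). In KO the libraries had 0.0702, 0.259 and 0.166 CPM, within the untreated WT range.

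Both signalling receptors for TRAIL were lower in DTC. TNFRSF10A, which encodes TRAIL-R1 (chromosome 8, 23190452 to 23225126, minus strand), had 31.1, 36.3 and 37.1 CPM in untreated WT, 11.4, 7.71 and 9.79 CPM in DTC, and 13.1, 15.5 and 15.0 CPM in DTEC. Every drug-treated library lay under every untreated WT library. The gene fell by 1.85 on the log2 scale in DTC (SE 0.139, adjusted p = 3.76e-08, edgeR), which is 3.62-fold lower, and by 1.26 in DTEC (SE 0.136, adjusted p = 3.72e-06). It was higher in DTEC than in DTC by 0.59 (adjusted p = 0.00235, edgeR).

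TNFRSF10B, which encodes TRAIL-R2 (chromosome 8, 23020133 to 23069179, minus strand), changed less. Untreated WT had 67.6, 73.2 and 74.2 CPM, DTC had 56.3, 41.1 and 42.7 CPM, and DTEC had 70.9, 63.5 and 42.5 CPM. The DTC libraries lay under the untreated WT libraries without overlap, while the DTEC libraries spread from the DTC range up into the untreated WT range. The gene fell by 0.62 in DTC (SE 0.163, adjusted p = 0.00389, edgeR), a call that ended when libraries were scaled by total counts (adjusted p = 0.165) or by upper quartile (adjusted p = 0.0735). In DTEC the difference of -0.28 (95% interval -0.63 to 0.07, adjusted p = 0.16, edgeR) did not pass. RHOBTB2 lies opposite TNFRSF10B with a mean of 29.4 CPM, and the strand setting of the counting is not given in the sources used here.

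The decoy receptor fell furthest in DTC. TNFRSF10D (chromosome 8, 23135588 to 23164030, minus strand) had 52.5, 50.8 and 50.1 CPM in untreated WT, 12.9, 8.51 and 10.6 CPM in DTC, and 26.6, 26.7 and 29.2 CPM in DTEC. The 3 groups were separate, with DTEC between the others. TNFRSF10D fell by 2.26 in DTC (SE 0.130, adjusted p = 3.03e-09, edgeR), or 4.79-fold, and by 0.89 in DTEC (SE 0.123, adjusted p = 3.32e-05), and it was 2.58-fold higher in DTEC than in DTC (adjusted p = 8.37e-07). The other decoys of the family were near the counting limit or changed otherwise: TNFRSF10C, a lipid-anchored TRAIL decoy, had at most 7 reads in any library and was not tested, and TNFRSF11B, the soluble decoy osteoprotegerin, is described with the pathway genes.

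Set against TNFRSF10B, the signalling receptor that changed less, the decoy transcript was reduced in DTC. The ratio of TNFRSF10D to TNFRSF10B read counts was 0.777, 0.693 and 0.676 in untreated WT, and 0.230, 0.207 and 0.250 in DTC. In DTEC it was 0.375, 0.421 and 0.688, so 1 DTEC library reached the untreated WT range and the other 2 stood between. These ratios have 1 read added to each count, are not scaled to gene length, and serve to compare groups. The log2 ratio differed by -1.64 between DTC and untreated WT (two-sided exact permutation p = 0.1, the smallest that 3 libraries against 3 can give, adjusted p = 0.133 over 8 ratio comparisons). In DTEC the difference was -0.58 (exact permutation p = 0.2) and overlapped. These ratios do not speak for TNFRSF10A, the other signalling receptor, which also fell. Its log2 fold change in DTC was -1.85, beside -2.26 for the decoy. At 28 days TNFRSF10A was the one further below its untreated level (-1.26, beside -0.89 for the decoy). The ratio of TNFRSF10D to TNFRSF10A was not tested.

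**Figure D1:**
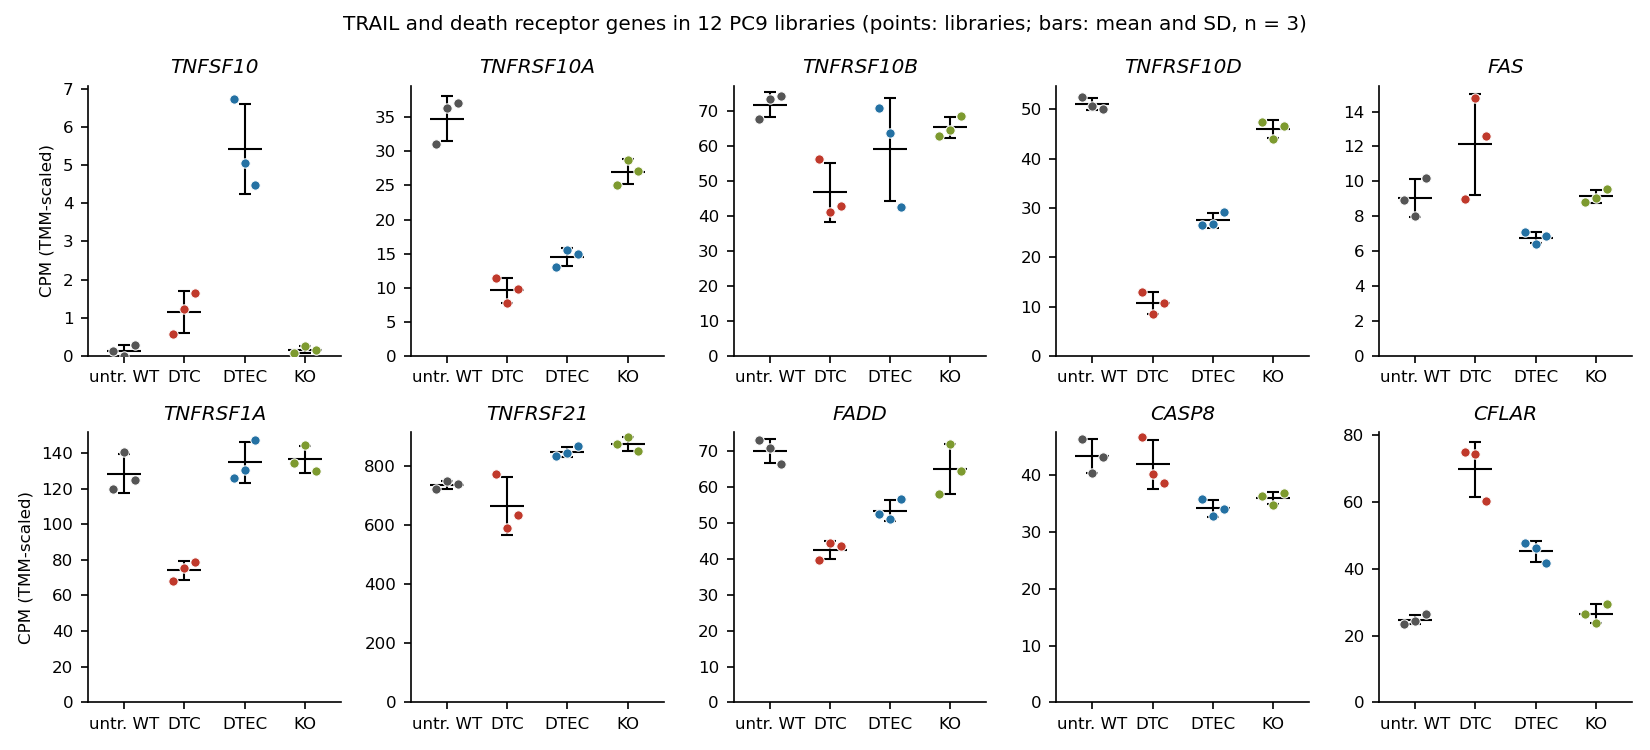
CPM of each of the 10 genes in the 12 libraries (linear axes from 0, scaled per panel), 1 panel per gene; points are libraries, and bars are the mean and SD of 3. TNFSF10 climbs from untreated WT to DTC to DTEC, TNFRSF10A and TNFRSF10D drop in DTC, CFLAR climbs in DTC, and KO sits near untreated WT.

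The remaining receptors did not share 1 pattern. FAS, the receptor for FAS ligand (chromosome 10, 88990582 to 89015785), had 8.96, 7.99 and 10.2 CPM in untreated WT, 8.99, 14.8 and 12.6 CPM in DTC, and 7.10, 6.42 and 6.84 CPM in DTEC. One DTC library lay inside the untreated WT range, and all DTEC libraries lay under it. FAS was called higher in DTC by 0.42 (SE 0.160, adjusted p = 0.0311, edgeR) and lower in DTEC by 0.42 (log2 fold change -0.42, SE 0.164, adjusted p = 0.0452). Both calls were marginal: the first was lost without untreated WT replicate 2 (adjusted p = 0.094), without DTC replicate 2 (0.0939) or with the compared libraries alone (0.0795), and the second was lost in 5 of 6 fits that left out 1 library. The fall from DTC to DTEC was larger, at -0.84 (SE 0.163, adjusted p = 5.91e-04, edgeR).

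TNFRSF1A, the main receptor for TNF (chromosome 12, 6328757 to 6342114), had 119.8, 140.7 and 124.7 CPM in untreated WT, 68.1, 75.5 and 78.6 CPM in DTC, and 126.1, 130.3 and 147.5 CPM in DTEC. DTC stood apart below, and DTEC overlapped with untreated WT. TNFRSF1A fell by 0.79 in DTC (SE 0.102, adjusted p = 8.19e-06, edgeR) and differed by 0.07 in DTEC (95% interval -0.15 to 0.28, adjusted p = 0.59).

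TNFRSF21, which encodes death receptor 6 (chromosome 6, 47231532 to 47309905), was the most abundant of the 10 per kilobase in every group. It had 723.2, 749.4 and 739.3 CPM in untreated WT, 775.0, 588.9 and 633.2 CPM in DTC, and 833.8, 843.6 and 868.2 CPM in DTEC. Its differences from untreated WT were -0.15 in DTC (95% interval -0.37 to 0.07, adjusted p = 0.219, edgeR) and 0.20 in DTEC (adjusted p = 0.113), and neither passed. The DTEC libraries lay above the untreated WT libraries without overlap, and the DTEC difference was called with total counts (adjusted p = 0.00763), upper quartile (0.0131), the stricter count filter (0.0458) or the compared libraries alone (0.0186). In DTC the gene was called lower without DTC replicate 1 (log2 fold change -0.23, adjusted p = 0.0115, edgeR).

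Downstream of the receptors, the adaptor fell and the caspase inhibitor rose. FADD (chromosome 11, 70203163 to 70207390) had 73.0, 70.9 and 66.4 CPM in untreated WT, 39.6, 44.3 and 43.5 CPM in DTC, and 52.5, 51.1 and 56.6 CPM in DTEC. The 3 groups did not overlap. FADD fell by 0.72 in DTC (1.65-fold lower, adjusted p = 1.78e-05, edgeR) and by 0.39 in DTEC (SE 0.0996, adjusted p = 0.00442), and the DTEC call was lost with total counts (adjusted p = 0.0688).

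CFLAR (ENSG00000003402, chromosome 2, 201116104 to 201176687) had 23.6, 24.4 and 26.4 CPM in untreated WT, 74.9, 74.3 and 60.4 CPM in DTC, and 47.7, 46.3 and 41.6 CPM in DTEC. Again the 3 groups were separate, with DTC highest. These counts are per gene and do not separate the long form of c-FLIP from other forms. CFLAR rose 2.82-fold in DTC (log2 fold change 1.49, SE 0.116, adjusted p = 4.94e-08, edgeR) and 1.82-fold in DTEC (log2 fold change 0.87, SE 0.115, adjusted p = 2.37e-05), and it was lower in DTEC than in DTC (-0.63, adjusted p = 3.16e-04).

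CASP8 (ENSG00000064012, chromosome 2, 201233443 to 201287711) did not follow CFLAR. It had 46.5, 40.4 and 43.1 CPM in untreated WT, 46.8, 40.3 and 38.6 CPM in DTC, and 35.8, 32.8 and 34.1 CPM in DTEC. DTC covered the untreated WT range, and DTEC lay below it. The DTC difference was -0.05 (95% interval -0.26 to 0.16, adjusted p = 0.677, edgeR), but scaling by total counts gave 0.31 (adjusted p = 0.0105) and by upper quartile 0.24 (adjusted p = 0.0336). CASP8 fell by 0.34 in DTEC (SE 0.0985, adjusted p = 0.00965, edgeR), a call that ended with total counts (0.143) or upper quartile (0.0541) and without untreated WT replicate 1 (0.0659) or DTEC replicate 2 (0.0536). CFLAR, CASP10 and CASP8 lie side by side on chromosome 2. Of the deposited values, 0 of 12 for CFLAR and 1 of 12 for CASP8 were whole numbers. Their counts therefore include shared-out reads, in a share that was not measured. Of the receptors, FAS also had 1 whole value of 12 and TNFRSF10B had 5.

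The balance of inhibitor to protease transcripts, taken within each library, differed between the cultures of the treatment groups. The ratio of CFLAR to CASP8 read counts was 0.508, 0.603 and 0.613 in untreated WT, 1.60, 1.84 and 1.56 in DTC, and 1.33, 1.41 and 1.22 in DTEC. The groups did not overlap, and DTC was highest. On the log2 scale the ratio was higher by 1.54 in DTC and by 1.20 in DTEC, and lower by 0.33 in DTEC than in DTC (difference -0.33), each with a two-sided exact permutation p = 0.1 and adjusted p = 0.133.

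**Figure D2:**
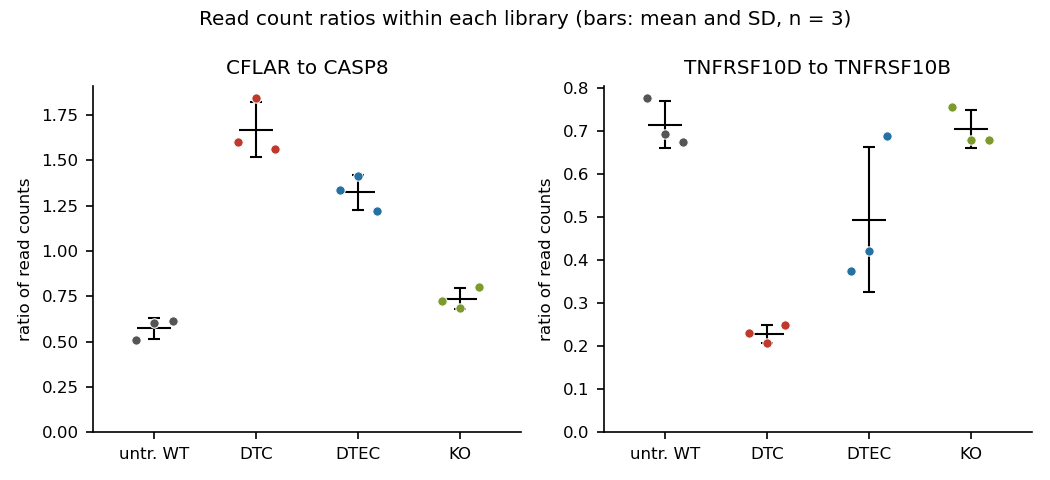
Ratio of CFLAR to CASP8 and of TNFRSF10D to TNFRSF10B read counts in each library, on linear axes from 0; points are libraries, and bars are the mean and SD of 3. The first ratio averages 0.575 in untreated WT and 1.67 in DTC, and the second averages 0.715 and 0.229.

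Counted over the 10 genes, DTC had 3 calls higher (TNFSF10, FAS, CFLAR) and 5 lower (TNFRSF10A, TNFRSF10B, TNFRSF10D, TNFRSF1A, FADD), where 67.3% of all 17115 tested genes were called, 34% higher and 33.3% lower. Libraries did not overlap for 7 of the 10, beside 68.9% of all genes. The median log2 fold change of the 10 was -0.38, against 0.06 over all tested genes. With total counts or upper quartile the split became 4 higher and 4 lower, and those scalings moved the median of all genes in DTC by 0.35 and 0.29. Of all tested genes, total counts called 46.8% higher and 21.6% lower in DTC, and upper quartile 44.2% and 23.8%. In DTEC 2 were called higher (TNFSF10, CFLAR) and 5 lower (TNFRSF10A, TNFRSF10D, FAS, FADD, CASP8), beside a background of 52.3% (26% higher, 26.3% lower), with a median of -0.31 against 0.02. For 8 of the 10 the libraries did not overlap, beside 62.4% of all genes. The DTEC split was 3 higher and 2 lower with total counts, and 3 and 3 with upper quartile. Of all tested genes, total counts called 33.6% higher and 19.1% lower in DTEC, and upper quartile 30.75% and 21.25%. Counts of 8 and 7 in 10 genes are read as near the background of 67.3% and 52.3%, and both comparisons use the same untreated WT libraries.

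Between the 2 drug-treated groups, 6 of the 10 genes were higher in DTEC than in DTC and 3 were lower, beside 55.4% of all tested genes (28.8% higher, 26.6% lower). The higher ones were TNFSF10, TNFRSF10A, TNFRSF10D, TNFRSF1A (log2 fold change 0.86, adjusted p = 7.58e-06, edgeR), TNFRSF21 (0.35, adjusted p = 0.0101) and FADD (0.33, adjusted p = 0.0119). The lower ones were FAS, CFLAR and CASP8 (-0.29, adjusted p = 0.021, edgeR). Libraries of the 2 groups did not overlap for 9 of the 10 genes, where 56.7% of tested genes were separate. TNFRSF10B differed by 0.34 (adjusted p = 0.0953, edgeR) and was called without DTEC replicate 3 (adjusted p = 0.00886), without DTC replicate 1 (0.0182) or without the count filter (0.0336). The split was 4 higher and 3 lower with total counts or upper quartile, where the calls of TNFRSF21 (adjusted p = 0.191 and 0.128) and FADD (0.229 and 0.203) ended. Those scalings called 20.8% and 21.5% of all tested genes higher, and 34.8% and 34.1% lower.

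**Figure D3:**
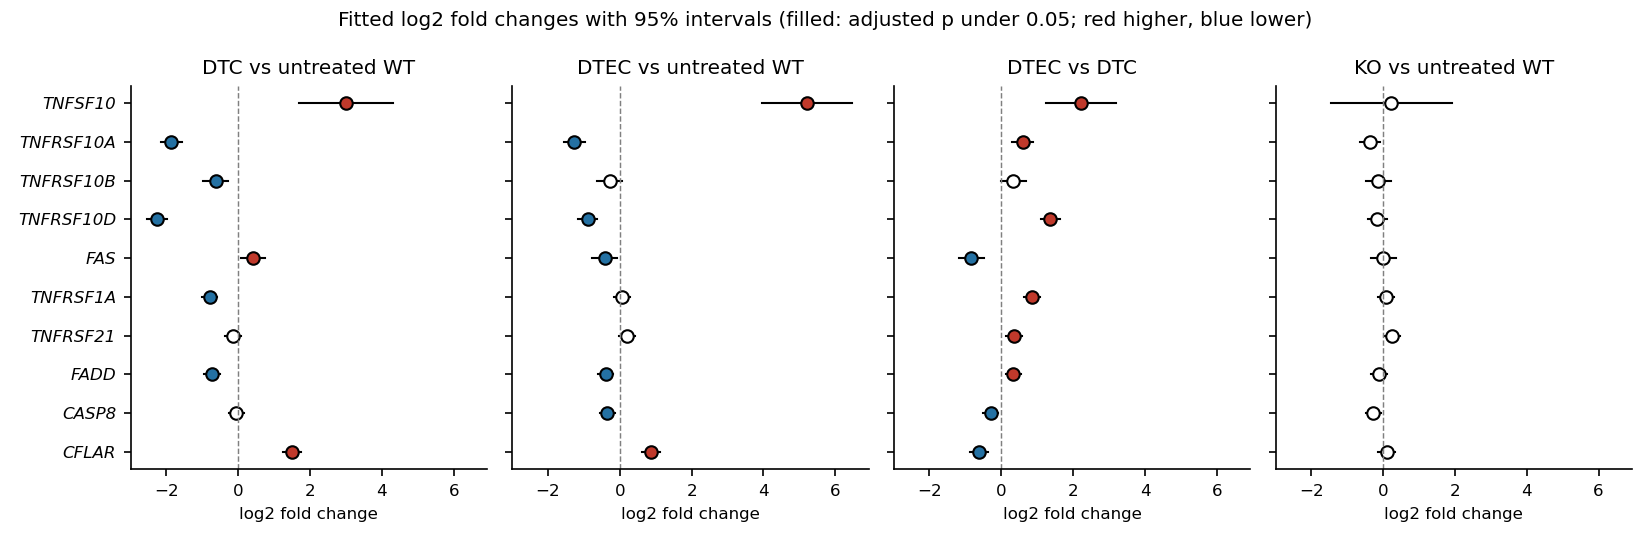
Log2 fold changes of the 10 genes in the 4 comparisons with 95% intervals; filled points had an adjusted p under 0.05. TNFSF10 lies far to the right in DTC and DTEC, TNFRSF10A and TNFRSF10D far to the left, and no point is filled for KO.

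Scaled per kilobase of exon, the 10 genes kept a wide spread of levels. In untreated WT TNFRSF21 stood at 205 CPM per kb, followed by FADD at 38.1, TNFRSF1A at 32.1, TNFRSF10D at 14.5, TNFRSF10B at 13.9, TNFRSF10A at 11.8, CASP8 at 5.99, FAS at 2.13, CFLAR at 1.10 and TNFSF10 at 0.0391 CPM per kb. Only TNFRSF10D and TNFRSF10B overlapped among neighbours in that order. In DTC the 4 genes TNFRSF10A (3.26 CPM per kb), CFLAR (3.10), TNFRSF10D (3.02) and FAS (2.85) came to like levels, each overlapping with the next. In DTEC, TNFSF10 at 1.56 CPM per kb overlapped with FAS at 1.60, while CFLAR stood at 2.01. The order depends on the length used: over the longest transcript, a choice added after the data were seen, CASP8 in untreated WT was at 14.8 CPM per kb and CFLAR at 1.69.

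The rest of the pathway was followed in 41 further genes, of which 33 passed the count filter. In DTC 17 of the 33 were called higher and 7 lower, beside 34% and 33.3% of all tested genes. With total counts 23 were higher and 3 lower, where 46.8% and 21.6% of all genes were. Upper quartile gave the same split, where 44.2% and 23.8% of all genes were called higher and lower. Their median log2 fold change was 0.50, against 0.06 over all genes. By role, 3 of 3 ligands, 2 of 4 receptors, 2 of 6 adaptors and kinases, 5 of 10 inhibitors and 5 of 9 caspases and mitochondrial genes were called higher. Called lower were 1 receptor, 2 adaptors and kinases, 2 inhibitors, 1 caspase or mitochondrial gene and the 1 tested necroptosis gene. TNF, the inflammatory ligand of TNFRSF1A, had 0, 0 and 1 reads in untreated WT and 36, 59 and 49 in DTC, at least 15.8-fold higher (chosen after its values were seen). LTA, a related ligand that uses the same receptor, was at least 4.86-fold higher in DTC, also chosen after its values were seen. FASLG, the ligand of FAS, had at most 3 reads in any library.

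TRAF1, an adaptor of TNF receptors, had 0.209, 0.438 and 0.144 CPM in untreated WT, 51.7, 39.4 and 44.4 CPM in DTC, and 1.10, 1.15 and 0.440 CPM in DTEC. It rose by 7.44 on the log2 scale in DTC (SE 0.424, adjusted p = 7.36e-09, edgeR) and lay 5.69 lower in DTEC than in DTC (log2 fold change -5.69, adjusted p = 5.7e-08). BIRC3, the ubiquitin ligase cIAP2 that blocks death signalling at TNF receptors, had means of 6.80 ± 1.09 (untreated WT), 177.5 ± 25.4 (DTC) and 7.38 ± 2.08 CPM (DTEC, SD, n = 3). The DTC libraries stood far above both other groups, by 4.70 over untreated WT (adjusted p = 4.6e-10, edgeR). TNFAIP3, the NF-κB feedback enzyme A20, had means of 50.9 ± 3.96 (untreated WT), 159.4 ± 24.4 (DTC) and 16.98 ± 2.93 CPM (DTEC, SD, n = 3). It was therefore called higher in DTC (1.65, adjusted p = 8.67e-08, edgeR) and lower in DTEC (-1.58, adjusted p = 4.89e-07). TNFRSF11B averaged 0.289 CPM without drug and rose to 4.26 CPM in DTC (log2 fold change 3.84, adjusted p = 7.65e-07, edgeR) and was at least 44.4-fold lower in DTEC than in DTC, where it had at most 3 reads.

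CASP10, the initiator caspase encoded between CFLAR and CASP8 (chromosome 2, 201182881 to 201229406), had 4.03, 3.64 and 4.85 CPM in untreated WT, 35.8, 28.2 and 27.6 CPM in DTC, and 22.9, 21.7 and 16.8 CPM in DTEC. Every drug-treated library exceeded every untreated WT library. CASP10 rose by 2.87 in DTC (SE 0.157, adjusted p = 1.96e-09, edgeR) and by 2.29 in DTEC (SE 0.156, adjusted p = 6.04e-08), while its neighbour CASP8 was called higher in neither with this scaling. Only 1 of its 12 deposited values was a whole number.

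**Figure D4:**
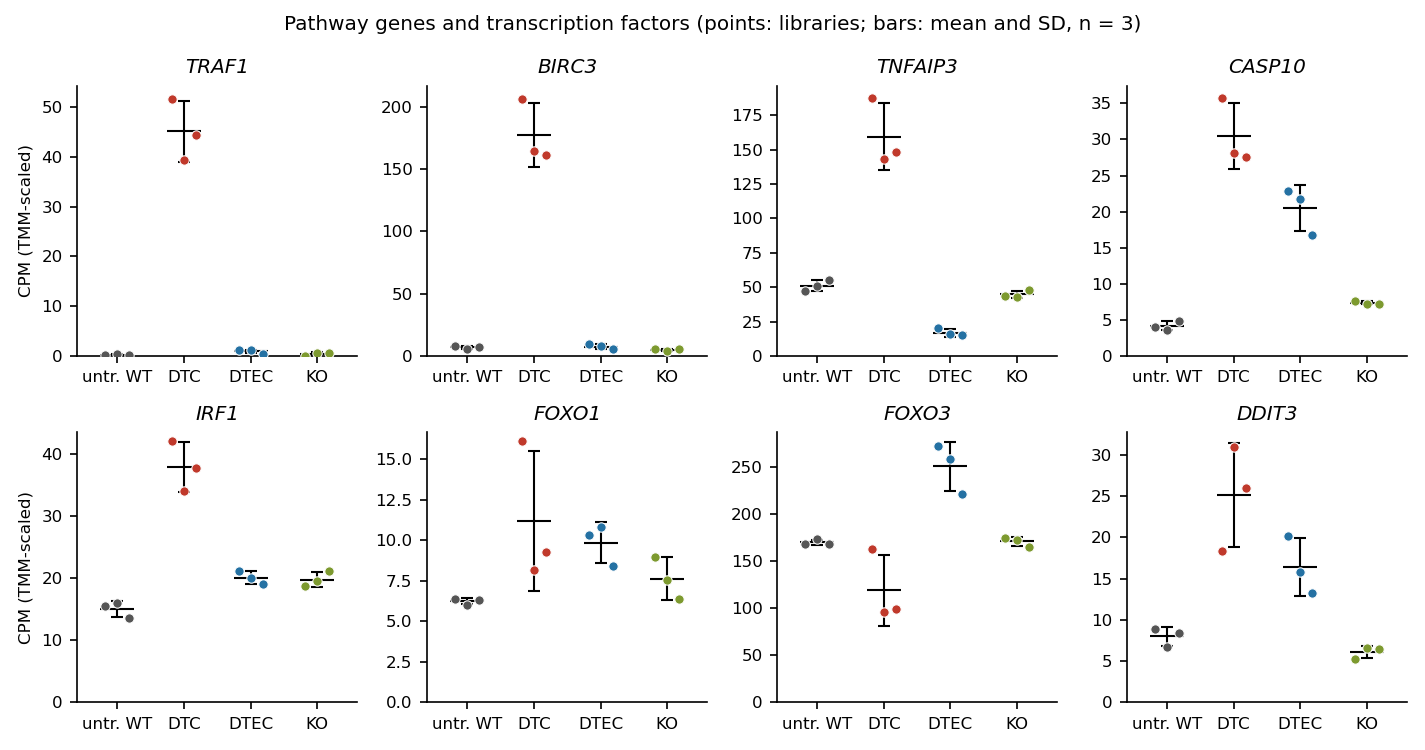
CPM in the 12 libraries of 4 pathway genes (TRAF1, BIRC3, TNFAIP3, CASP10) and 4 transcription factors (IRF1, FOXO1, FOXO3, DDIT3), on linear axes from 0; points are libraries, and bars are the mean and SD of 3. TRAF1, BIRC3 and TNFAIP3 peak in DTC, and CASP10 stays above untreated WT in DTEC.

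In DTEC the pathway genes split into 11 called higher and 13 lower, beside 26% and 26.3% of all tested genes, with a median of -0.22. With total counts the split was 13 higher and 10 lower, where 33.6% and 19.1% of all genes were. The 11 include LTA, which had 2 reads at most in DTEC and 0 in untreated WT, too few for a fold. Among called genes averaging at least 1 CPM, the 3 largest falls were in CYCS, the cytochrome c of the mitochondrial arm (488 to 157 CPM, log2 fold change -1.63, adjusted p = 4.81e-07, edgeR), TNFAIP3, and MLKL, the effector of necroptosis (43.6 to 15.9 CPM, -1.46, adjusted p = 2.26e-07). RIPK3, the kinase that activates MLKL, had 0 reads in all 12 libraries. Compared with DTC, DTEC had 24 of the 33 lower and 2 higher, beside 26.6% and 28.8% of all tested genes, with a median of -0.50 against -0.01 over all genes. All 3 tested ligands and all 6 adaptors and kinases were among the 24.

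**Figure D5:**
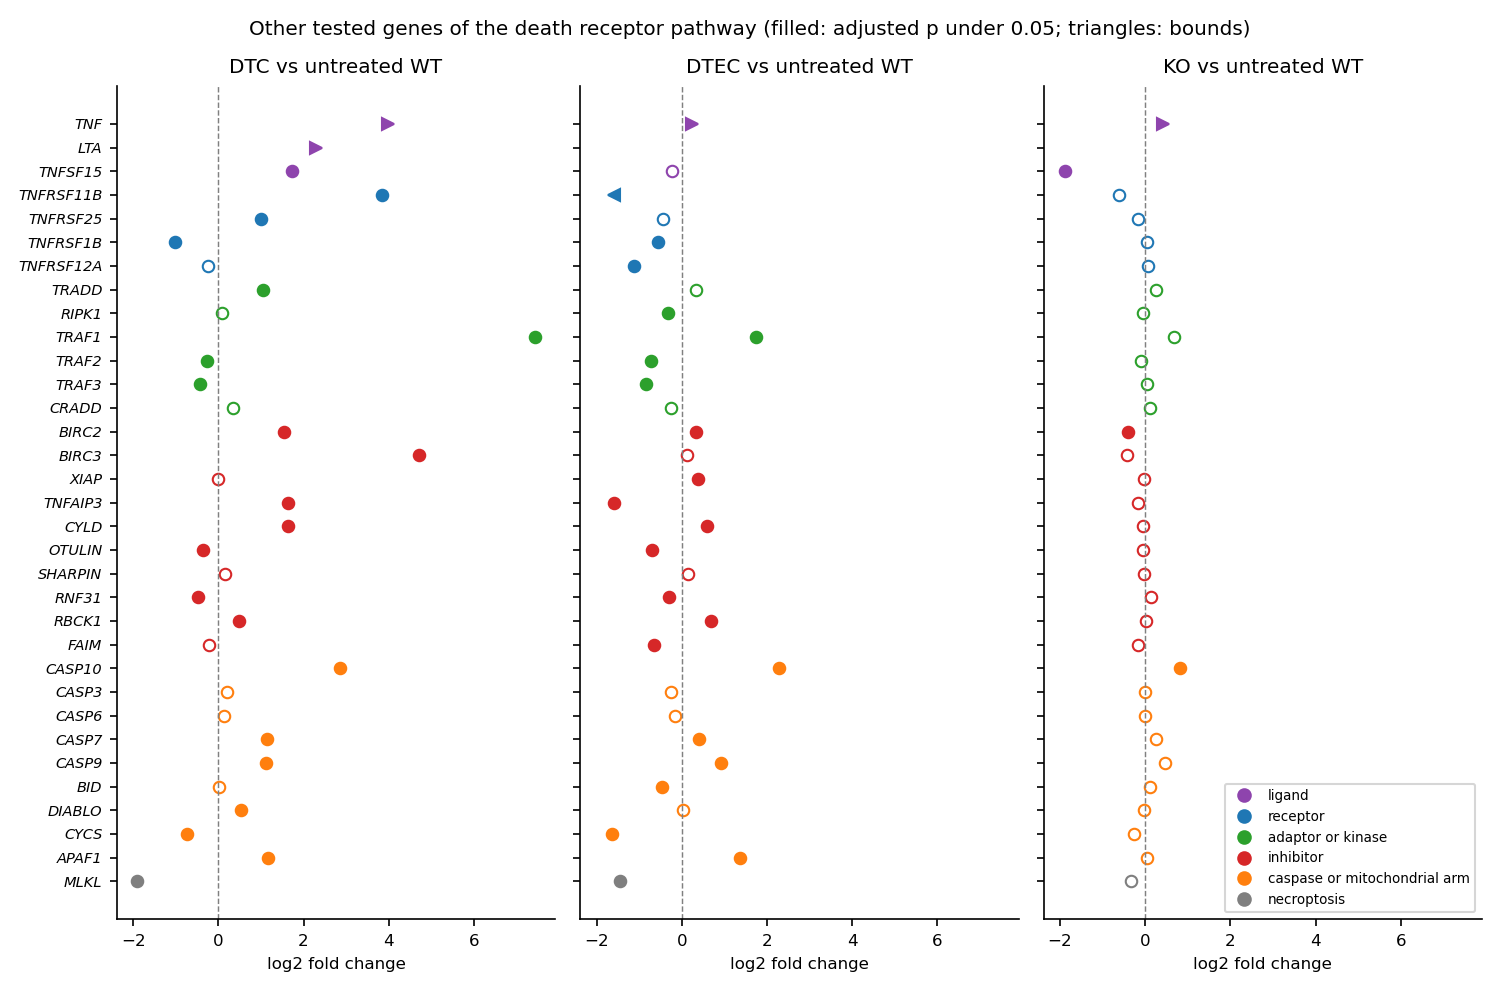
Log2 fold change against untreated WT of the 33 tested pathway genes outside the 10, ordered and coloured by role; filled symbols had an adjusted p under 0.05, triangles are bounds for genes with at most 3 reads per library in 1 group, and genes at that limit in both groups are left out. DTC has 17 genes higher and 7 lower, DTEC 11 and 13, and KO 2 and 2. Over all tested genes the shares were 34% and 33.3%, 26% and 26.3%, and 2.76% and 1.55%.

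The transcription factors IRF1, FOXO1, FOXO3 and DDIT3 are known to act on TNFSF10 or TNFRSF10B, and their levels differed between the groups. IRF1, an activator at interferon response elements, had means of 15.05 ± 1.3 (untreated WT), 37.9 ± 4.04 (DTC) and 20.1 ± 1.06 CPM (DTEC, SD, n = 3). It rose by 1.33 in DTC (adjusted p = 1.03e-07, edgeR) and by 0.41 in DTEC (adjusted p = 0.00597). The part of IRF1 in the TNFSF10 levels was not tested. DDIT3, the stress factor CHOP that acts on TNFRSF10B, rose by 1.65 in DTC (adjusted p = 4.74e-06, edgeR) and by 1.03 in DTEC (adjusted p = 5.81e-04). Its part in the TNFRSF10B levels was not tested.

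FOXO3, a factor that EGFR-AKT signalling keeps out of the nucleus, had means of 170 ± 2.82 (untreated WT), 119 ± 37.7 (DTC) and 250.8 ± 26.2 CPM (DTEC, SD, n = 3). The DTC libraries were uneven, with 163, 95.8 and 98.8 CPM. FOXO3 fell by 0.51 in DTC (adjusted p = 0.0122, edgeR) and rose by 0.56 in DTEC (adjusted p = 0.00996). None of its 12 deposited values was whole, and FOXO3B is a near-identical copy. FOXO1 rose by 0.84 in DTC (adjusted p = 0.00376, edgeR) and 0.65 in DTEC (adjusted p = 0.0223).

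Loss of TDP1 without drug left the 10 genes without a call. In KO against untreated WT 0 of 10 passed in edgeR (3 had an unadjusted p under 0.05) and 0 in DESeq2, where 4.31% of all tested genes were called in edgeR (2.76% higher, 1.55% lower), and the median log2 fold change was -0.05. TNFRSF10A had 25.1, 28.7 and 27.2 CPM in KO, all under untreated WT (-0.37, adjusted p = 0.162, edgeR). TNFRSF21 had 875.0, 897.4 and 852.8 CPM, all above untreated WT (0.25, adjusted p = 0.236, edgeR), and CASP8 had 36.4, 34.9 and 36.8 CPM, all below it (-0.27, adjusted p = 0.169). When the 6 libraries were fitted alone, these 3 were called (adjusted p = 0.0171, 0.00234 and 0.0269), in a fit that called 17.5% of all genes it tested. TNFRSF10D was the other gene without overlap, giving 4 of 10 where 35.7% of all genes were separate. For TNFSF10 the interval of the difference ran from -1.44 to 1.91, which includes changes of over 2-fold in either direction. The ratio of CFLAR to CASP8 was 0.726, 0.686 and 0.800 in KO, above all untreated WT libraries, by 0.36 on the log2 scale (two-sided exact permutation p = 0.1, the smallest possible).

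Of the 33 tested pathway genes, KO had 2 called higher and 2 lower, beside 2.76% and 1.55% of all tested genes. With total counts 3 were higher and 1 lower, where 3.95% and 1.06% of all genes were. Fits that left out 1 library called 2 to 3 of the pathway genes. TNFSF15, a ligand of the receptor TNFRSF25, had 4.93, 4.62 and 3.63 CPM in untreated WT and 1.37, 0.939 and 1.27 CPM in KO, a fall of 1.88 on the log2 scale (log2 fold change -1.88, adjusted p = 0.00176, edgeR). CASP10 rose from 4.17 to 7.34 CPM (0.81, adjusted p = 0.00932, edgeR), the same neighbour of CASP8 that was higher in both drug-treated groups. BIRC2, the ubiquitin ligase cIAP1, fell by 0.41 (adjusted p = 0.0285, edgeR). TNF had 3, 4 and 5 reads in KO and at most 1 read in any untreated WT library, too few for a fold.

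Genes with a pattern like that of TNFSF10 over the 12 libraries were sought among 9800 candidates with at least 10 CPM on average. The closest genes were C1orf210 (Pearson r = 0.969 of log2 CPM), PCK2 (0.959), FAM219B (0.953), TSPAN2 (0.951) and AIG1 (0.951). The correlation does not compare the size of changes. C1orf210 averaged 11.1 CPM in untreated WT, 15.0 CPM in DTC, 20.4 CPM in DTEC and 11.7 CPM in KO. PCK2, the mitochondrial phosphoenolpyruvate carboxykinase, averaged 12.7 CPM without drug, 29.8 CPM in DTC, 68.8 CPM in DTEC and 13.9 CPM in the knockout. For TNFRSF10B they were XK (r = 0.964), PRKD3 (0.960), CDKAL1 (0.955), FOXO3B (0.943) and MCUR1 (0.942), with FOXO3B uncertain because of its copy FOXO3. The 12 libraries share groups, so these values describe likeness of pattern and carry no test.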

How the data were processed

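The authors deposited 1 table of expected counts per gene. The submitters' processing notes name Bowtie2 2.5.2, RSEM 1.3.1, DESeq2 1.40.2 and GRCh38, with no role for each, and the annotation, filters and strand setting are not given in the sources used here. Per the labels, polyadenylated RNA was sequenced as 101 bp pairs with a stranded kit, in 1 batch, so no within-batch value other than the pooled one exists. Of the deposited values, 71.4% were whole among 15935 genes with a mean of at least 10, to a tolerance of 1e-09. Rounded values entered edgeR 4.0.16 under R 4.3.3: filterByExpr kept 17115 genes, all 12 libraries were fitted with TMM scaling and robust quasi-likelihood F tests, and p-values were adjusted over these genes by the Benjamini-Hochberg method, called under 0.05. Intervals are 95%, and floors of 3 counts cover counting error only. Alternatives were other scalings and filters, DESeq2 1.42.0, a replicate block, the compared libraries alone and leaving out each library. Ratios of read counts, with 1 added to each, were compared as log2 values in exact permutation tests.

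Members and lists were chosen with earlier results of these data known. Named besides the 10 genes were the 4 called pathway genes with the largest absolute change per comparison at 1 CPM or more, 4 of 6 listed transcription factors (the others are not reported here) and the 5 genes most like TNFSF10 or TNFRSF10B. Coordinates are those of GENCODE 29 and promoters those of RefSeq. Counts were also simulated for DTC against untreated WT over 17115 genes, with 200 genes changed, all averaging 1 CPM or more in untreated WT. Of the changed genes, 25.5% were recovered at 1.5-fold, 89.5% at 2-fold and 99% at 4-fold. In the data 67.3% of tested genes were called, so these rates do not give the recovery in the data, nor that of genes under 1 CPM.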

Additional observations from a re-analysis of the deposited data

Results flagged for a closer look

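The 28-day and 7-day effects of erlotinib, each against untreated WT, differed for 8 of the 9 genes that were called in at least 1 of them, all but TNFRSF10B, where 55.4% of all tested genes differed. The 9 were taken because they were called, so the count is a description. The difference, tested directly as DTEC against DTC in edgeR, was 2.22 on the log2 scale for TNFSF10, 1.37 for TNFRSF10D, 0.86 for TNFRSF1A, 0.59 for TNFRSF10A and 0.33 for FADD, and it was -0.84 for FAS, -0.63 for CFLAR and -0.29 for CASP8. The receptors TNFRSF10A and TNFRSF10D, the adaptor FADD and the inhibitor CFLAR had moved part of the way back toward the untreated WT level at 28 days. TNFRSF1A overlapped with that level, and TNFSF10 had moved further from it, as had CASP8 with TMM scaling. The FADD difference between DTEC and DTC was not called with total counts or upper quartile. FAS was called in opposite directions at the 2 times.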

How the results depend on the processing

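Scaling moved the small effects. In DTC against untreated WT, TNFRSF21 turned from -0.15 to 0.21 with total counts and 0.14 with upper quartile, and CASP8 turned from -0.05 to 0.31 and 0.24, to 0.060 with the stricter filter, and to 0.036, 0.040 and 0.052 without untreated WT replicate 1, DTC replicate 2 or DTC replicate 3 (lowest -0.0999, without DTC replicate 1). In DTEC, TNFRSF1A ran from -0.010 to 0.152 and TDP1 from -0.00997 to 0.0853 when 1 library was left out, with TDP1 at -0.0051 in another such fit. In KO, TNFSF10 turned to -0.27 and -0.20 without untreated WT replicate 2 or KO replicate 2 (highest 1.37, without untreated WT replicate 3), FAS ran from -0.047 to 0.130 when 1 library was left out, and the log2 ratio of TNFRSF10D to TNFRSF10B, -0.02 with all libraries, ran from -0.069 to 0.042 when 1 was left out. None of these results was called with TMM scaling and all libraries, but CASP8 in DTC was called higher with total counts and with upper quartile. The cause was not tested. In KO 3 of the 10 genes were called with the compared libraries alone against 0, and 2 pathway genes without the count filter. Those fits called 17.5% and 3.65% of all genes they tested.

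Leaving out 1 library gave 7 to 9 of the 10 genes called in DTC, 5 to 7 in DTEC, 8 to 10 in DTEC against DTC and 0 in KO, and 21 to 25, 17 to 22, 23 to 28 and 2 to 3 of the pathway genes. Of all tested genes, the same fits called 61.3 to 70.0%, 43.7 to 48.4%, 47.5 to 60.3% and 1.81 to 2.40%. The log2 CFLAR to CASP8 difference stayed between 1.45 and 1.59 in DTC and 1.12 and 1.26 in DTEC, and that of TNFRSF10D to TNFRSF10B between -1.71 and -1.57 and between -0.85 and -0.41. Deviations of same-numbered libraries correlated at -0.030 to 0.179 (median 0.053), with 4 of 18 pairs above 0.1. Those of different-numbered libraries correlated at -0.187 to 0.118 (median -0.032), with 2 of 36 pairs above 0.1. Whether replicate numbers pair the samples was not tested. A fit with the replicate block called 8, 7, 9 and 0 of the 10 genes in the 4 comparisons and 24, 25, 26 and 3 of the pathway genes. It called 68.8, 54.1, 56.9 and 5.18% of all tested genes.

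Depth limits TNFSF10 in untreated WT and KO, TNF, LTA and the 8 pathway genes left out by the filter.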

Other observations

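TNFSF12, a ligand outside the tested genes, had 0 reads in untreated WT and 0.304, 0.118 and 0.264 CPM in DTC, at least 2.47-fold higher. APAF1, the apoptosome scaffold, was higher by 1.17 in DTC and 1.38 in DTEC (log2, both called by edgeR), in contrast to CYCS, its activator, which was lower by 0.74 and 1.63. Both genes were picked after their values were seen.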
